A study of Mus musculus with 12 samples.

Results

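Loss of the B cell receptor (BCR) was examined in sorted, untreated mouse B lymphoma cells by comparing BCR-negative with BCR-positive arrays of the same tumours. The comparison uses 6 of the 12 arrays of the series, 3 a side, chosen by their titles and paired by tumour number. All cells came from primary cultures of lymphomas of l-MYC;B1-8f mice (strain C57BL/6J x BALB/c), which combine a MYC transgene with a heavy chain gene that Cre can delete. TAT-Cre, a cell-permeable recombinase, was given to the cultures to remove the receptor. After 4 days in mixed culture, flow cytometry separated cells with and without the receptor, and neither group received CHIR99021, an inhibitor of the kinase GSK3. Whether the sorted BCR-positive cells had also met the recombinase is not given in the labels. The remaining 6 arrays are BCR-negative cells under CHIR99021 and BCR-independent cells, the latter clones derived after prolonged culture of BCR-negative tumours. Each tumour (2567, 2646 and 2676) gave 1 array per group. The main fit used all 12 arrays with tumour as a block. Its p-values therefore measure how group differences vary between 3 tumours, with the CHIR99021 and BCR-independent arrays included in that spread. Titles of the 4 untreated arrays of tumours 2646 and 2676 carry the mark (2), which those of tumour 2567 lack.

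The BCR is a surface immunoglobulin of heavy and light chains held by the signalling pair Cd79a and Cd79b. It signals through Src family kinases and Syk, both after antigen and as a weaker tonic signal that B cells need to survive. MHC class II molecules display antigen taken up through the receptor, and the invariant chain Cd74 guides them to the endosome.

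Total RNA was read on Affymetrix gene expression arrays. Values are log2 signals of 35556 probe sets, and changes are BCR-negative minus BCR-positive on the log2 scale with the standard error (SE) of the fit. Values of the 3 tumours are always given in the order 2567, 2646 and 2676. Array medians lay between 3.32 and 3.44, and a signal near them has no measured background beside it. Most B cell identity genes were bright in both groups. Cd79a read 9.68, 10.21 and 10.19 in BCR-positive and 9.48, 10.64 and 10.13 in BCR-negative cells. Pax5, the B lineage commitment factor, lay between 8.37 and 8.72 on all 6 arrays. Ms4a1, which encodes CD20, lay between 2.60 and 3.19, below the array medians, and Blk between 3.61 and 7.01. Of 11 B cell identity genes measured, 8 were lower by the fitted change (50.3% of all genes). In each tumour 0 were higher and 4 lower (12.2% and 11.9% of all genes). The 4 were Blk (-1.03), Spib (-0.66), Ms4a1 (-0.18) and Ikzf3 (-0.06). Markers of other cell types were low on average: the mean level of 9 T cell markers was 3.35 to 3.51 in BCR-positive and 3.39 to 3.45 in BCR-negative cells. For 11 macrophage and granulocyte markers the ranges were 3.08 to 3.25 and 3.12 to 3.31, for 8 NK cell markers 2.87 to 3.03 and 2.89 to 2.95, for 7 erythroid and megakaryocyte markers 3.10 to 3.18 and 3.07 to 3.19, and for 12 stromal and endothelial markers 3.51 to 3.59 and 3.46 to 3.66. Single members stood higher. Cd2, of the T cell list, read 6.28, 5.62 and 5.37 in BCR-positive and 6.41, 7.14 and 5.41 in BCR-negative cells. Cd3d, Cd3e and Cd8a of the same list lay between 2.71 and 3.83 on all 6 arrays. Itgam, of the macrophage and granulocyte list, read 4.37, 5.38 and 5.94 against 4.28, 4.75 and 5.97.

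The deleted heavy chain gave the clearest difference. Ighv1-72, from which the variable region of the B1-8 heavy chain derives, read 9.45, 9.45 and 9.97 in BCR-positive cells and 6.97, 5.85 and 6.50 in BCR-negative cells. The groups did not overlap, and the change was -3.18 (SE 0.32), a 9.09-fold lower signal that was still above the array medians in all 3 BCR-negative samples. Over all 35556 probe sets limma called 0 at an adjusted p under 0.05 (0.00% of those tested), with 1276 at an unadjusted p under 0.05 (3.59%) and an adjusted p of 0.110 for Ighv1-72. Among the 12961 genes left after removing dim probe sets and keeping 1 probe set a gene, Ighv1-72 was the 1 gene called (0.00772%), at an adjusted p of 0.0241. That call comes from a separate fit with fewer features and its own variance prior (SE 0.307), and differences of all other genes are given below as values that passed no adjusted threshold. 4 further probe sets shared its profile among the 6 smallest p-values: 2 listed under several immunoglobulin heavy chain genes (changes of -2.80 and -2.87) and 2 with no gene in the annotation (-3.07 and -3.03). The 2 listed under several genes read 10.52 to 11.07 in BCR-positive and 7.27 to 8.51 in BCR-negative cells. Whether these probe sets read the same transcript as Ighv1-72 was not tested. The last of the 6, also without a gene, differed by -1.14 with adjusted p = 0.110, at -1.14, -1.13 and -1.14 in the 3 tumours.

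**Figure D1:**
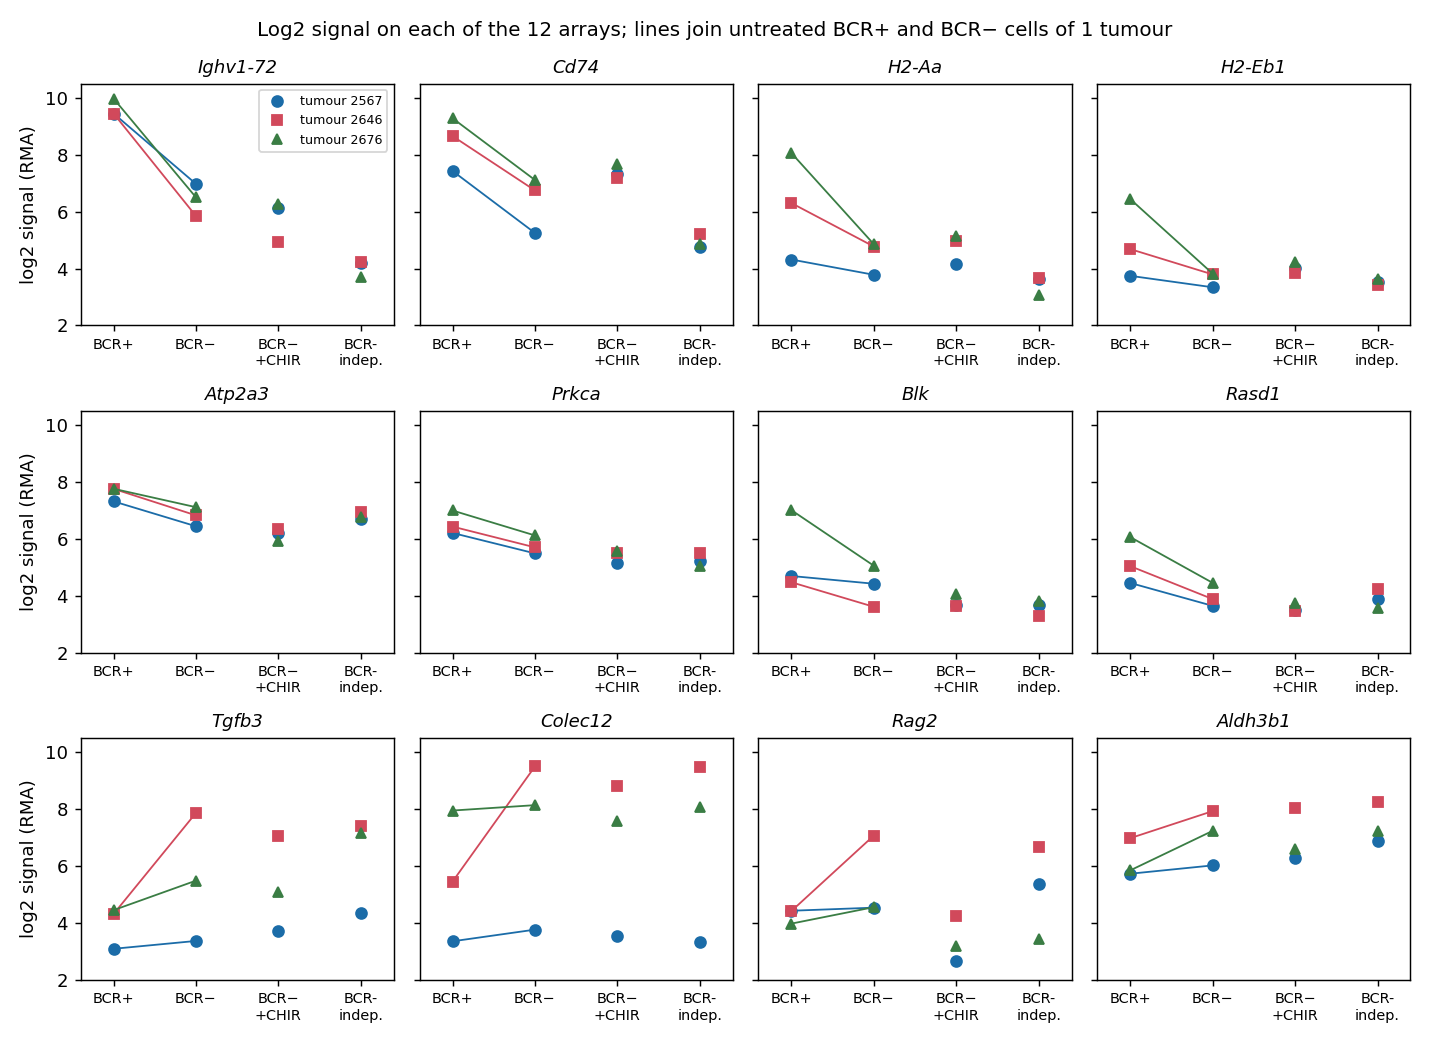
Log2 signal (vertical axis) of 12 genes on each of the 12 arrays, by group (horizontal axis) and tumour (symbol); lines join the untreated pair of each tumour. Ighv1-72 and Cd74 are lower along near-parallel lines in all 3 tumours, while the H2-Aa difference is largest in tumour 2676 and those of Colec12 and Tgfb3 in tumour 2646.

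The other receptor chains, read by probe sets of 1 gene, differed less. Ighm, the constant region of IgM, read 4.20, 4.01 and 4.05 against 4.03, 3.51 and 3.73 (-0.33, SE 0.10). Its other probe set differed by 0.05, -0.48 and 0.01 in the 3 tumours (-0.14, SE 0.12). Both probe sets read at most 4.20 on these arrays, close to the array medians. Cd79b, the partner of Cd79a, lay between 9.20 and 9.86 on the 6 arrays, with changes of 0.02 (SE 0.13) for Cd79b and 0.06 (SE 0.20) for Cd79a; the first turned to -0.01 after quantile normalization, and without tumour 2646 they were -0.11 and -0.13. The surrogate light chain, which pairs with the heavy chain before a light chain is made, was lower in each tumour: Igll1 read 5.27, 5.55 and 8.99 in BCR-positive and 4.27, 4.70 and 8.03 in BCR-negative cells. These differences were alike in size (-0.99, -0.85 and -0.96), although tumour 2676 stood far above the others. In the fit over 12 arrays, in which the other groups enter the spread, the SE of Igll1 was 0.76 and its unadjusted limma p 0.249. The SE was 0.0815 with only the 6 arrays, where the unadjusted limma p was 0.00011. Its partner Vpreb1 read 4.00, 4.08 and 6.96 against 3.32, 3.58 and 6.20. Of 10 receptor chain genes measured (of 16 fixed), 5 were lower and 0 higher in each of the 3 tumours, where all 18820 genes gave 11.9% lower and 12.2% higher.

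Some light chain segments separated the pair of arrays of tumour 2646. Igkv1-117, a kappa variable segment, read 4.11, 10.28 and 3.85 in BCR-positive and 3.72, 4.61 and 3.92 in BCR-negative cells. Only the BCR-positive array of tumour 2646 was high, and the same tumour read 7.64 under CHIR99021 and 3.60 in BCR-independent cells. The kappa constant gene Igkc went the other way there, from 4.08 to 6.46, with 7.12 and 8.20 in the treated and BCR-independent cells of that tumour. In tumours 2567 and 2676 Igkc differed by -0.25 and 0.25. Igkv5-43, another kappa variable segment, read 3.88, 2.90 and 2.96 in BCR-positive and 3.96, 6.35 and 3.67 in BCR-negative cells. By contrast, Igkv6-23 was bright in all 3 tumours and differed little, at 8.70, 7.69 and 8.46 against 8.57, 7.59 and 8.71. Over the 20 probe sets that the annotation places among kappa genes, changes ran from -2.30 to 1.41 with 1 lower and 2 higher in each tumour.

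Among genes with 1 direction in all 3 tumours, Cd74 and H2-Aa had the largest decreases after Ighv1-72. Cd74 read 7.43, 8.66 and 9.28 in BCR-positive and 5.25, 6.75 and 7.11 in BCR-negative cells, without overlap (2.36% of all genes had lower groups that did not overlap). Its change was -2.09 (SE 0.36, limma adjusted p = 0.999 over all probe sets), in the main fit the smallest p after Ighv1-72 among genes. That SE includes the spread of the CHIR99021 and BCR-independent arrays. With only the 6 arrays the SE of Cd74 was 0.095. Its unadjusted limma p was then 5.1e-06, below the 5.7e-05 of Ighv1-72, although that fit called 0 probe sets. For Cd74 the same 3 tumours read 7.31, 7.20 and 7.68 under CHIR99021 and 4.75, 5.21 and 4.85 in BCR-independent cells. H2-Aa, the alpha chain of the class II molecule I-A, read 4.32, 6.30 and 8.06 against 3.78, 4.77 and 4.86. The level in BCR-positive cells was ordered as for Cd74, lowest in tumour 2567 and highest in 2676, and so was the size of the H2-Aa difference (-0.54, -1.53 and -3.20). H2-Eb1, the beta chain of I-E, followed the same order, at 3.74, 4.68 and 6.44 against 3.34, 3.79 and 3.82. In tumour 2567 both chains lay within 1 log2 unit of the array medians in either group.

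The proximal promoters of these 2 chains are shown because class II genes share an upstream module whose Y box carries an inverted CCAAT sequence. The sequences (RefSeq, build GRCm38.p6, 300 bases each) run across the start of transcription, H2-Aa at chr17:34287774-34288073 on the minus strand and H2-Eb1 at chr17:34305617-34305916 on the plus strand. Capitals mark CTGATTGG, taken as the Y box.
H2-Aa: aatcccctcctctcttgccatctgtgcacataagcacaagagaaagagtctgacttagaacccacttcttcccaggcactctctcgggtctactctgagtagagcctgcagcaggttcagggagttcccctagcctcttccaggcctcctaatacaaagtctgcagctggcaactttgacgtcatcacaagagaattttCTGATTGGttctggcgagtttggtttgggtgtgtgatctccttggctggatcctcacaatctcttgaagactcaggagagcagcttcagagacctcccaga
H2-Eb1: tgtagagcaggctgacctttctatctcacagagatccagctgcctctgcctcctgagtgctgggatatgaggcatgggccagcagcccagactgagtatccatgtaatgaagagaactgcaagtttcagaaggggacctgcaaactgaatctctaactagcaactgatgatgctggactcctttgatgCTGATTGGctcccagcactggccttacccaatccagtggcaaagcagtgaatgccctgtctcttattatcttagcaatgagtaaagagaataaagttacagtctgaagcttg
On either strand, CTGATTGG occurred in 4.1% of the 32851 promoters of the same length in this table. Of the 17 class II presentation genes 13 had an entry, and 4 of these held the letters. They were chosen with these sequences in view, and a match is no measurement of binding.

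Not every class II gene behaved alike. H2-Ab1, the beta chain of I-A, read 6.05, 7.43 and 8.74 against 4.85, 8.14 and 6.81, lower in 2 tumours and higher in tumour 2646. H2-Ob, a chain of the modulator H2-O, read 5.86, 6.40 and 5.99 against 5.51, 8.06 and 6.12, again with its largest step upward in tumour 2646. Ciita, the transactivator of the class II genes, differed by -0.48 (SE 0.14) at levels between 3.14 and 4.26. The proteases Ctss and Lgmn, which trim the invariant chain, differed by 0.30 (SE 0.16) and 0.18 (SE 0.15). In all, 7 of 14 measured class II presentation genes were lower and 7 higher, 4 of them lower in each tumour (11.9% of all genes) and 1 higher, with a median change of -0.03 beside -0.00 for all genes. 4 passed an unadjusted p of 0.05 downward, where 1.60% of all genes did. The 13 MHC class I presentation genes showed 1 lower and 1 higher in each tumour and medians of -0.20, 0.21 and -0.09.

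A short list of genes differed by at least 1.5-fold in each of the 3 tumours. Beside Ighv1-72, Cd74 and Igll1 it held Atp2a3, Prkca, Rasd1, Cnn3, Cd36 and Ctsh among the lower and Bex3 and 1 predicted gene among the higher, out of 12961 genes above the filter on dim signals. Prkca and Ctsh are named because they met this threshold, which was set after their values were seen. Atp2a3, a calcium pump of the endoplasmic reticulum, read 7.32, 7.76 and 7.76 against 6.44, 6.82 and 7.11, without overlap, a change of -0.82 (SE 0.16). Its levels stayed between 5.93 and 6.35 under CHIR99021 and between 6.69 and 6.93 in BCR-independent cells. Prkca, protein kinase C alpha, read 6.21, 6.43 and 7.00 against 5.49, 5.70 and 6.12 (-0.77, SE 0.18). Rasd1, a small Ras-related GTPase, read 4.45, 5.04 and 6.06 against 3.64, 3.88 and 4.45 (-1.19, SE 0.32). The cysteine protease Ctsh read 4.45, 5.28 and 5.63 against 3.80, 4.60 and 4.60. Bex3 read 3.93, 5.07 and 5.68 against 4.70, 6.35 and 6.35. Calponin Cnn3 was lower by both of its probe sets (-1.26 and -1.40).

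**Figure D2:**
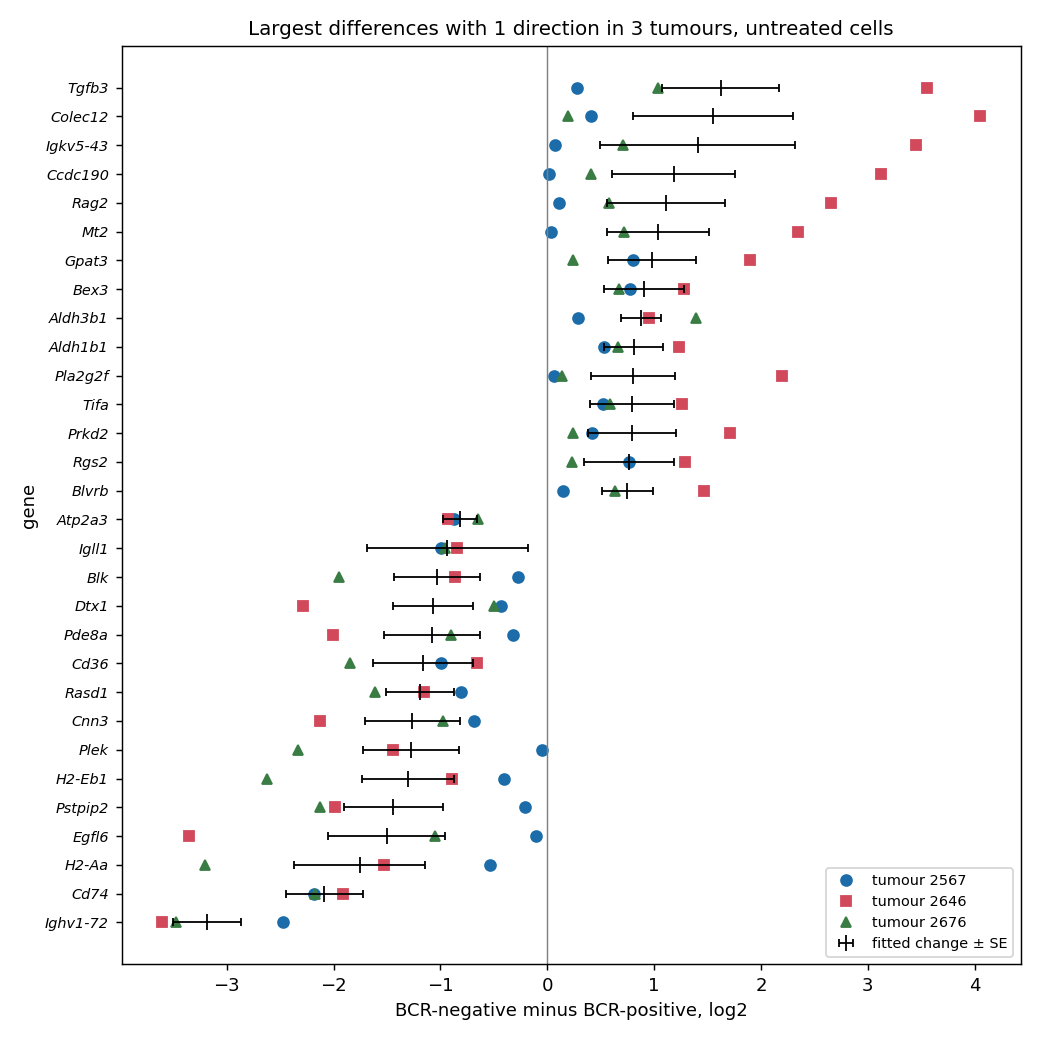
Change from BCR-positive to BCR-negative cells (horizontal axis, log2) of the 15 genes with the largest decrease and the 15 with the largest increase among those with 1 direction in 3 tumours. Symbols are tumours and black bars the fitted change ± SE; the decreases of Cd74, Igll1 and Atp2a3 lie close together across tumours, and the increases are largest in tumour 2646 for all of the 15 but Aldh3b1.

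Several of the larger decreases belonged to tumours 2646 and 2676. Pstpip2, an adaptor of the actin cytoskeleton, read 3.32, 5.81 and 6.26 against 3.11, 3.82 and 4.13, while its other probe set differed by 0.07. Plek (pleckstrin, a substrate of protein kinase C) read 3.04, 4.89 and 5.41 and at most 3.44 in BCR-negative cells. In tumour 2567 both genes were near the array medians in either group, and with each array's 40th percentile as a floor the change of Plek was -1.22 in place of -1.27. Blk, the Src family kinase of B cells, read 4.69, 4.47 and 7.01 against 4.42, 3.61 and 5.05. Egfl6, a secreted protein with EGF-like repeats, read 3.57, 6.58 and 7.26 against 3.46, 3.23 and 6.21. For the phosphodiesterase Pde8a and the Notch regulator Dtx1 the differences were -1.08 (SE 0.45) and -1.07 (SE 0.37). That of Dtx1 came mainly from tumour 2646, at -0.43, -2.28 and -0.50 in the 3 tumours. Cd36, a receptor for fatty acids, was instead lower in each tumour and least so in 2646, at 4.15, 5.96 and 6.32 against 3.16, 5.30 and 4.46. It was highest in the treated BCR-negative cells, at 6.55, 7.82 and 6.78.

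Among genes chosen for 1 direction in all 3 tumours, most of the largest increases were led by tumour 2646. Tgfb3, a growth factor of the TGF-beta family, read 3.09, 4.31 and 4.45 against 3.37, 7.87 and 5.49 (1.62, SE 0.55). Colec12, a scavenger receptor with a collectin domain, read 3.35, 5.45 and 7.95 against 3.76, 9.50 and 8.14. Rag2, a subunit of the V(D)J recombinase, read 4.43, 4.42 and 3.97 against 4.54, 7.07 and 4.55, just without overlap (2.79% of all genes had higher groups that did not overlap). The metallothionein Mt2 read 5.91, 7.38 and 7.07 against 5.95, 9.74 and 7.79. In the other arrays of tumour 2646 without the receptor, Tgfb3 read 7.04 (treated) and 7.42 (BCR-independent), Colec12 8.82 and 9.48 and Mt2 8.84 and 9.34, while Rag2 read 4.23 and 6.65. Igkv5-43, Ccdc190, Pla2g2f and the kinase Prkd2 belonged to the same group, with differences of 3.45, 3.12, 2.20 and 1.71 in tumour 2646 and at most 0.71 in either other tumour.

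Aldh3b1, an aldehyde dehydrogenase, read 5.73, 6.98 and 5.85 against 6.02, 7.93 and 7.24 (0.88, SE 0.19), with its largest step in tumour 2676. The mitochondrial Aldh1b1 read 4.23, 5.96 and 4.66 against 4.76, 7.19 and 5.32. Gpat3, an acyltransferase of triglyceride synthesis, differed by 0.98 (SE 0.41) and biliverdin reductase Blvrb by 0.75 (SE 0.24). Rgs2, which turns off G protein signals, read 6.41, 6.46 and 7.04 against 7.18, 7.75 and 7.27 without overlap. Tifa, an adaptor of TRAF6, read 6.85, 7.87 and 7.85 against 7.37, 9.13 and 8.43.

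Few of the largest differences were common to all 3 tumours. Among the 12961 genes above the filter, 4, 184 and 13 were at least 2-fold higher in BCR-negative cells of tumours 2567, 2646 and 2676, and 7, 84 and 34 at least 2-fold lower. Only Cd74 and Ighv1-72 were 2-fold lower in all 3 tumours, and 0 genes were 2-fold higher in all. Of the decreases, 9 were shared by tumours 2646 and 2676, which is 10.7% of the first list and 26.5% of the second. Tumours 2567 and 2676 shared 4 (57.1% and 11.8%). Both counts of shared decreases include Ighv1-72 and Cd74. Of the increases, 1 was shared by tumours 2646 and 2676 and 0 by either with tumour 2567. Across these genes, the within-tumour differences correlated at -0.06 (2567 and 2646), 0.15 (2567 and 2676) and 0.05 (2646 and 2676). These are descriptions over genes of shared arrays, not tests. Over all probe sets 8329 (23.4%) had 1 direction in 3 tumours, and 221 of them a mean change of at least 1.5-fold. Tumour 2567 is also the one without the title mark, so tumour and mark cannot be told apart.

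**Figure D3:**
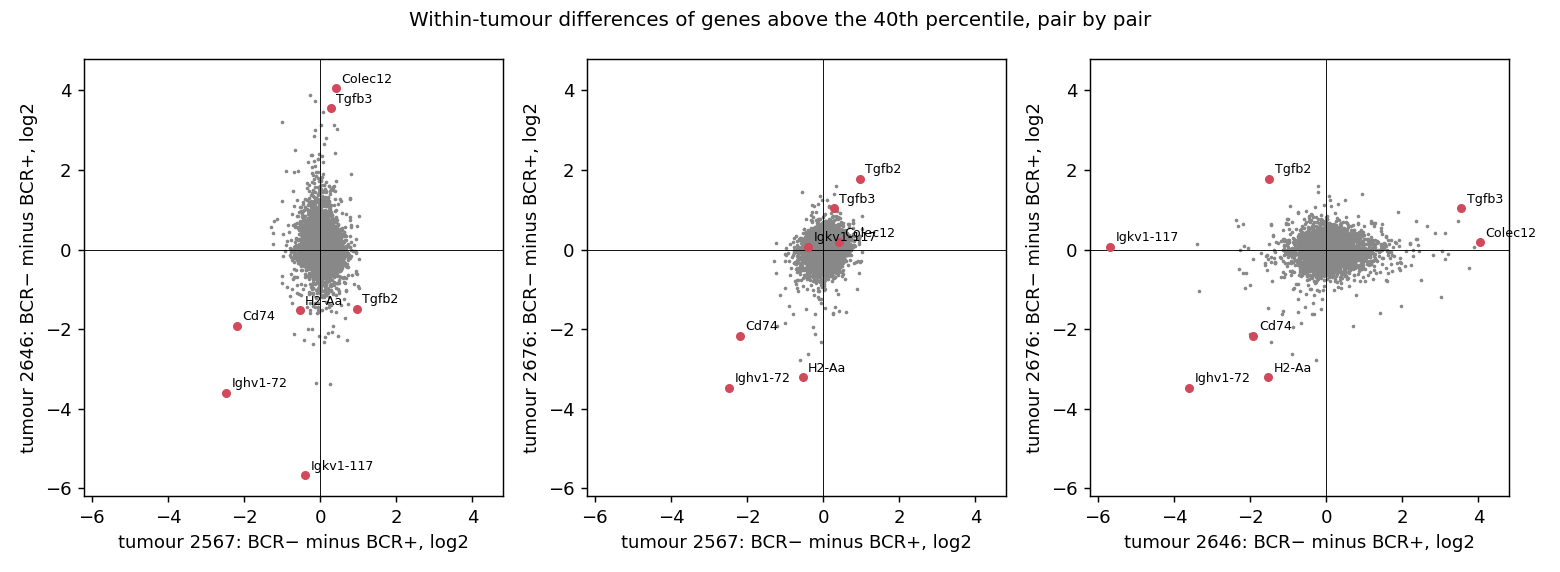
Within-tumour difference of each of 12961 genes (BCR-negative minus BCR-positive, log2) in 1 tumour against another; each point is a gene. Ighv1-72 and Cd74 stand in the lower left of all 3 panels, while the long arms of tumour 2646, from Igkv1-117 to Colec12, run along a single axis.

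Tumours also had their own largest differences. These were picked among genes whose brighter array of the pair exceeded its 60th percentile, with predicted genes, pseudogenes and small RNAs left out. In tumour 2646 the lectin-like Clec2h read 3.31 and 7.20, and Itga1, a collagen-binding integrin, 3.98 and 7.72 in BCR-positive and BCR-negative cells, with 3.09 to 3.87 for either gene in the other tumours. The stem cell marker Prom1 went from 6.64 to 3.26 in tumour 2646 alone by 1 probe set, while the fitted changes of this and its other probe set were -0.99 and 0.06. In tumour 2676 Tgfb2 went from 3.96 to 5.74 and Idh2, the mitochondrial isocitrate dehydrogenase that makes NADPH, from 7.52 to 9.11. Tgfb2 was also higher in tumour 2567 (5.01 to 5.97) and lower in tumour 2646 (4.98 to 3.49). In tumour 2567 the largest decreases after Ighv1-72 and Cd74 were those of the LIM protein Crip1 (6.20 to 4.90) and Adam34l (5.06 to 3.81). Among the genes so picked, its largest increases were those of Actn1, an actin crosslinker (4.89 to 5.91), and Tgfb2. The sodium pump subunit Atp1b1 (6.77 to 7.72) and the transcription factor Jun (5.30 to 6.25) came next. The other probe set of Actn1 differed by -0.10 in the fit over all tumours.

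Downstream of the receptor, signalling genes showed no common direction. Of 29 signalling protein genes measured, 4 were higher and 4 lower in each tumour, with a median change of -0.01. Syk differed by 0.14 (SE 0.15), Btk by 0.20 (SE 0.14) and the adaptor Blnk by 0.17 (SE 0.15), each with 1 direction in 3 tumours. The adaptor Grb2 differed by -0.26 (SE 0.10). Among 20 inhibitory receptors and phosphatases 0 were higher and 5 lower in each tumour (12.2% and 11.9% of all genes). Cd72, a receptor that restrains BCR signals, read 8.93, 9.90 and 9.93 against 8.50, 9.48 and 8.94 (-0.61, SE 0.21). Of 32 measured genes that BCR stimulation is known to induce, 24 were higher by the fitted change (49.7% of all genes). Among them 3 were higher and 0 lower in each tumour, with medians of 0.13, 0.05 and -0.03. In limma 0 of them passed an unadjusted p of 0.05 (1.34% of all genes passed it upward). Dusp6, a phosphatase of ERK, read 3.16, 3.43 and 3.26 against 3.11, 5.72 and 3.26, high on the array of tumour 2646 alone.

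Of 28 transcription factors of the B lineage measured, 3 were higher and 7 lower in each tumour, with a median of -0.04. Spib, an ETS factor, read 7.67, 8.70 and 8.54 against 7.32, 7.24 and 8.36 (-0.66, SE 0.25), and the octamer factor Pou2f2 5.51, 5.72 and 5.77 against 5.43, 5.16 and 5.32 (-0.36, SE 0.11). Id3, an inhibitor of E proteins, read 5.12, 3.86 and 3.60 against 5.19, 5.77 and 3.70. For 13 genes of the BCL2 family the median change was 0.01, with 2 higher and 1 lower in each tumour, among them Bmf, a BH3-only death protein, at 0.29 (SE 0.15). For 20 measured p53 targets (5 higher, 2 lower in each tumour) Btg2, an antiproliferative gene, differed by 0.35 (SE 0.14). The 19 genes of GSK3 and Wnt signalling had a median of -0.04, with Axin2, a Wnt target, at 0.08 (SE 0.08).

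**Figure D4:**
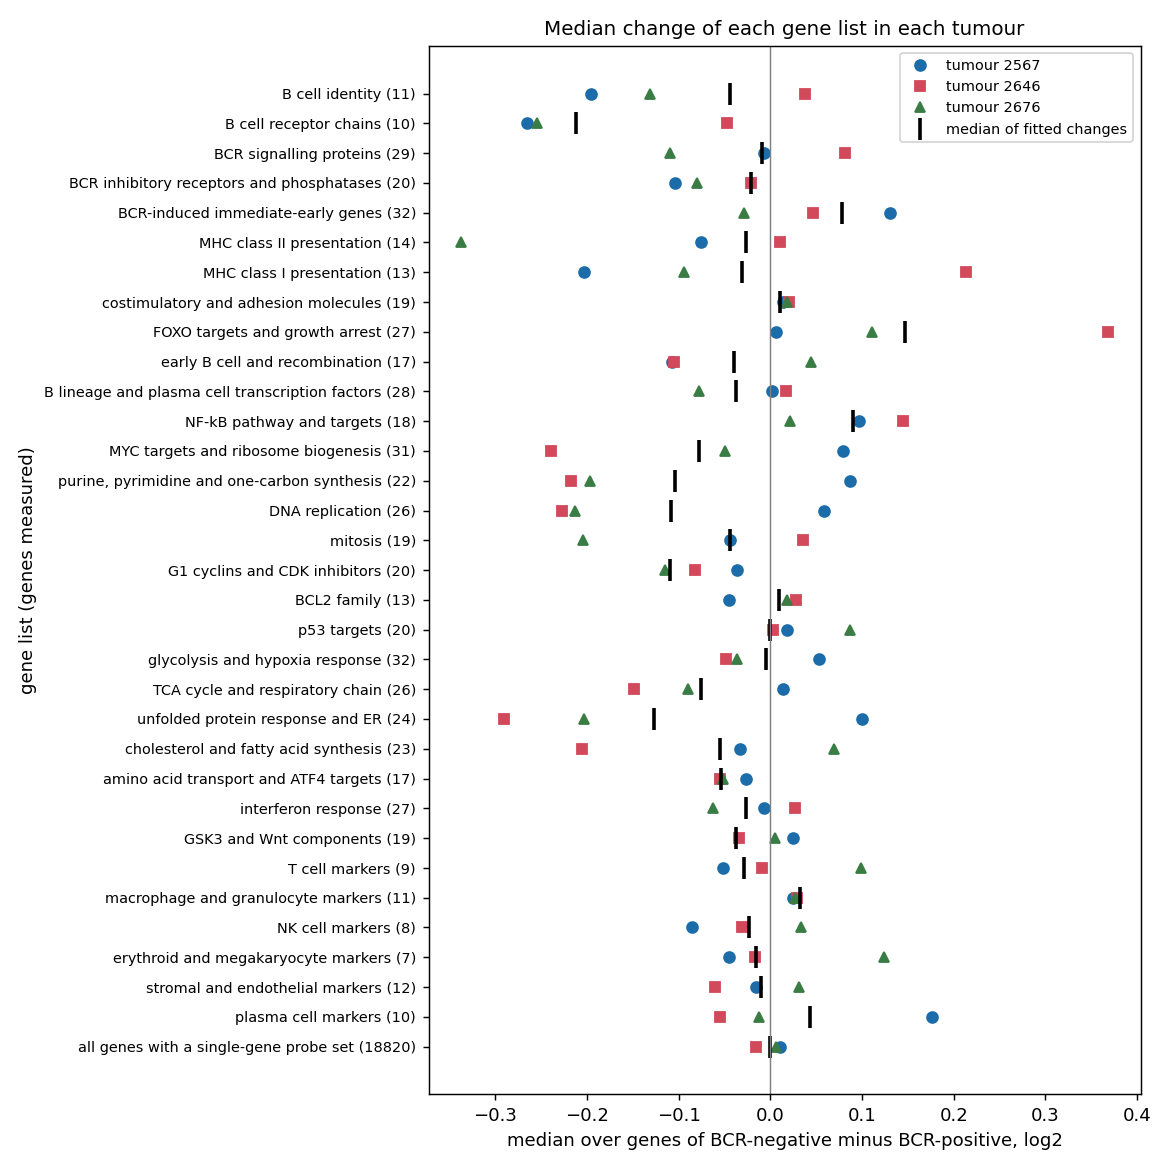
Median change (horizontal axis, log2) of each gene list in each tumour (symbols), with the median of the fitted changes as a black bar and the number of genes measured in parentheses. DNA replication, MYC target, nucleotide synthesis and unfolded protein response genes lie below 0 in tumours 2646 and 2676 and above 0 in tumour 2567.

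Several growth and biosynthesis lists had a median above 0 in tumour 2567 and below 0 in the other tumours, while the mitosis and G1 lists did not. Of 26 DNA replication genes 24 were lower by the fitted change (50.3% of all genes), yet 7 were lower and 0 higher in each tumour, and the tumour medians were 0.06, -0.23 and -0.21. Rrm2, a ribonucleotide reductase subunit, read 9.16, 9.06 and 9.40 against 9.01, 8.40 and 9.01. For 24 unfolded protein response genes the medians were 0.10, -0.29 and -0.20. Derl3, which helps to remove misfolded proteins from the endoplasmic reticulum, read 4.00, 5.19 and 6.27 against 4.04, 3.67 and 4.81. MYC target and ribosome biogenesis genes (31) gave 0.08, -0.24 and -0.05, and purine, pyrimidine and one-carbon genes (22) 0.09, -0.22 and -0.20. The 26 TCA and respiratory genes gave 0.01, -0.15 and -0.09, and the 32 glycolysis and hypoxia genes 0.05, -0.05 and -0.04. Tfrc, the transferrin receptor, read 9.04, 9.32 and 9.16 against 9.03, 8.39 and 8.61. Of 20 G1 cyclins and CDK regulators 5 were lower and 0 higher in each tumour, with medians of -0.04, -0.08 and -0.12 and Cdk2, the G1/S kinase, at -0.25 (SE 0.11). Mitosis genes (19) had medians of -0.04, 0.04 and -0.20.

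Of 27 FOXO target and growth arrest genes measured, 24 were higher by the fitted change (49.7% of all genes) and 0 passed an unadjusted p of 0.05 in limma in either direction. In each tumour 8 were higher and 2 lower (12.2% and 11.9% of all genes), with medians of 0.01, 0.37 and 0.11. Trp53inp1, a stress-induced autophagy protein, read 8.45, 8.70 and 8.67 against 8.76, 9.43 and 9.15. The insulin receptor gene Insr read 5.05, 5.28 and 3.51 against 5.71, 5.51 and 3.72. Irs2, its substrate, stepped mainly in tumour 2676 (3.87 to 5.10), and S1pr1, the egress receptor, in tumour 2646 (5.69 to 6.86). NF-kB pathway genes (18) had medians of 0.10, 0.14 and 0.02, with 5 higher and 0 lower in each tumour, and the NF-kB subunit gene Nfkb2 read 3.20, 3.62 and 3.32 against 3.50, 3.78 and 3.72, close to the array medians.

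The other lists lay close to 0. Medians were -0.05 for 23 sterol and fatty acid synthesis genes, with the desaturase Scd1 at -0.30 (SE 0.13), -0.05 for 17 amino acid transport and ATF4 targets, and -0.03 for 27 interferon response genes, of which 15 were above the filter. In 19 costimulatory and adhesion genes 5 were higher and 2 lower in each tumour. The BAFF receptor family member Tnfrsf13b read 5.78, 6.13 and 6.20 against 5.43, 5.98 and 6.05. Early B cell and recombination genes (17) had 2 higher and 5 lower in each tumour, with Rag2 above and Igll1, Vpreb1 and Vpreb2 below. Plasma cell markers (10) had a median of 0.04, and their mean level ranged from 4.93 to 5.55 in BCR-positive and 5.07 to 5.39 in BCR-negative cells.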

How the data were processed

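The authors deposited log2 signals made by RMA with Affymetrix Power Tools from Affymetrix Mouse Gene 1.1 ST arrays, per the submitters' processing notes and series text. RMA corrects background, normalizes arrays to a common distribution and summarises probes, which compresses differences between dim probe sets. Versions were not given in the sources used here. Deposited values were taken unchanged, and 0 table columns lacked a sample.

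Of 35556 probe sets, 21218 had 1 gene symbol, 1881 several and 12457 none in the platform annotation, and 21185 symbols were updated by gene ID (RefSeq, GRCm38.p6). The probe set with the highest mean stood for each of 18820 genes. A linear model of group plus tumour was fitted to all 12 arrays and all probe sets with limma 3.58.1 (R 4.3.3; 6 residual degrees of freedom, 2.63 from the prior), with Benjamini-Hochberg adjustment and a threshold of 0.05. After group means were removed, arrays of the same tumour correlated at 0.24 to 0.63 and those of different tumours at -0.70 to 0.06, so tumour was kept as a block. The filter on dim signals asks for the 40th percentile of an array, 3.06 to 3.16, to be exceeded on at least 3 arrays. The fit was tested on simulated data.

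The members, the 33 gene lists (691 memberships, 617 measured) and the tests were chosen with earlier results of these data known, so lists are described by counts and medians only. Genes named are the 15 largest increases and decreases with 1 direction in 3 tumours, each tumour's 4 largest each way, the 4 members of each list with the smallest p, the receptor chains and Ighv1-72, Cd74 and H2-Aa. For each tumour's own picks, the brighter array of the pair had to exceed its 60th percentile. Other members are named after their values were seen. Predicted genes and small RNAs were not named. The number of arrays limits the precision. The alternatives were other filters, probe set means, no block, robust eBayes with a trend on intensity, weighted arrays, quantile or cyclic loess normalization, only the 6 arrays, the title mark as a term, a floor for dim signals and each tumour left out.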

Additional observations from a re-analysis of the deposited data

How the results depend on the processing

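Over all probe sets limma called 0 at an adjusted p under 0.05, and it also called 0 without the replicate block, with trend and robust eBayes, array weights, quantile normalization, cyclic loess, only the 6 arrays, the title mark as a term and each tumour left out. A filter at the 40th percentile that kept every kind of probe set, chosen after seeing the data, also gave 0 (Ighv1-72 at adjusted p = 0.0703). With 1 probe set a gene the filters at the 40th and 60th percentile and the mean of probe sets gave 1 call each, Ighv1-72 at -3.18 with adjusted p of 0.0241, 0.0127 and 0.0250; these fits differ in filter, probe sets and variance prior at once, and their parts were not tested apart. Without the block its adjusted p was 0.0971, and over all alternatives it ran from 0.0127 to 1.00. Leaving out a tumour moved its change between -3.54 and -2.97. Of 2147 recomputed values of 159 named genes, 25 (in 22 genes) turned sign, 22 of them with a tumour left out. Ighv1-72, the only gene called in any setting, kept its sign in all of them. The number of probe sets with 1 direction in 3 tumours was 8553 after quantile normalization and 8652 after cyclic loess. With 3 tumours and no detection calls, small differences near the array medians cannot be resolved.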

Other observations

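Probe sets without a gene in the annotation used made up different shares of the large differences in the 3 tumours. In tumour 2567, 508 probe sets differed by at least 2-fold between BCR-negative and BCR-positive cells, of which 492 had no gene and 13 a single gene. The same counts were 475, 157 and 290 in tumour 2646 and 159, 105 and 49 in tumour 2676. Of all probe sets with no gene these are 3.95%, 1.26% and 0.843% in tumours 2567, 2646 and 2676, and of those with a single gene 0.0613%, 1.37% and 0.231%. The probe set without a gene that differed by -1.14, -1.13 and -1.14 read 5.61, 5.04 and 5.08 in BCR-positive and 4.47, 3.91 and 3.94 in BCR-negative cells.

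Over the 2 lambda light chain probe sets, both listed under several genes, the differences in tumour 2646 were 3.18 and 0.94, against -0.19 and -0.49 in tumour 2567 and 0.04 and 0.18 in tumour 2676. The kappa segment Igkv1-135 differed by -2.18 and Igkv9-120 by -2.11 in tumour 2646, beside the larger difference of Igkv1-117.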
